A study of Mus musculus with 9 samples.

Results

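The epidermal growth factor (EGF) family was followed through the lungs of 9 mice by its 10 named genes: the ligands Areg, Ereg, Hbegf, Tgfa, Btc, Egf and Nrg1, and the receptors Egfr, Erbb2 and Erbb3. They were found by gene name in a table of 34638 genes, where they filled 11 entries because Nrg1 has a second, nested entry with at most 2 reads in any mouse. All mice were wild-type C57BL/6, and RNA was taken from whole lung tissue, in which fewer cells of a type and less RNA per cell cannot be told apart. Control mice (n = 3) received phosphate-buffered saline (PBS). IL-33 mice (n = 3) received 0.5 µg of recombinant mouse IL-33, an alarmin of the airway epithelium, into the trachea on each day from 0 to 3. IL-33+LM8 mice (n = 3) received the same IL-33 and an intraperitoneal dose of LM8, an inhibitor of the adaptor protein MyD88, at 10 mg/kg ahead of it. The study's methods describe the first 2 groups as females of 6 to 8 weeks with lungs collected on day 4; the age and day for the LM8 mice were not given in the sources used here.

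EGF family ligands are made as membrane-bound precursors that metalloproteases cut free. Areg (amphiregulin), Tgfa, Egf and Epgn bind the receptor encoded by Egfr, Hbegf, Btc and Ereg bind the products of Egfr and Erbb4, and neuregulins bind those of Erbb3 and Erbb4. The Erbb2 product has no known ligand of its own and serves as a partner of the others. In the lung these genes are known for epithelial repair, and Areg is also made by leukocytes such as group 2 innate lymphoid cells (ILC2), regulatory T cells, mast cells and basophils.

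Levels are given as FPKM, read counts scaled for gene length and library size, so that genes can be compared. Per unit of length, Hbegf, Erbb2 and Erbb3 were the most abundant members, with means over the 9 mice of 9.61, 8.74 and 9.08 FPKM. Tgfa, Egfr and Areg followed at 3.46, 3.34 and 2.88 FPKM. Btc was at 0.599 FPKM, Nrg1 at 0.499, Ereg at 0.0926 and Egf at 0.0867. Genes with a mean of at least 0.5 FPKM entered the test, so 7 of the 10 members were tested and Nrg1, Ereg and Egf were not.

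The libraries held between 53877663 and 90607218 reads on genes. In each group the deepest library (control replicate 3, IL-33 replicate 1 and IL-33+LM8 replicate 3) deviated from its group in the same way as those of the other groups, with correlations over genes of 0.65 to 0.67, so counts of called genes are also given without these 3 libraries. Markers that define the labelled tissue were present in all mice: the summed level of 5 alveolar type 2 genes, led by Sftpc, lay between 6063 and 13360 FPKM.

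In IL-33 lungs Areg and Hbegf were higher than in control lungs, and Tgfa, Btc and all 3 receptors were lower. All 7 tested members were called at an adjusted p under 0.05, 2 higher and 5 lower. Here and in what follows the test was edgeR's quasi-likelihood one, with p-values adjusted over all genes tested by Benjamini and Hochberg's method. The background was broad, since 54.6% of the 16831 genes tested were called in this comparison, 27.4% higher and 27.2% lower. Only Areg and Egfr also changed by 2-fold or more, as 17.0% of all genes did. The groups did not overlap in any of the 7, as in 63.4% of all genes. The median log2 fold change of the 7 members was -0.60 and that of all genes tested -0.005. Without the deepest library of each group 5 of the 7 were called, with Hbegf (adjusted p = 0.16) and Btc (adjusted p = 0.059) lost.

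Areg (ENSMUSG00000029378) sits on chromosome 5 between 91287458 and 91296291, plus strand, by the deposited table's coordinates, whose genome build could not be settled. Control mice had 1.63, 1.43 and 1.95 FPKM (129, 112 and 182 reads), and IL-33 mice had 4.67, 3.18 and 6.34 FPKM (389, 243 and 434 reads). The groups did not overlap, all IL-33 mice being the higher, and the IL-33 mice spread far more widely. The mean rose 2.84-fold, from 1.67 ± 0.264 to 4.73 ± 1.58 FPKM (SD, n = 3 each). The log2 fold change was 1.50 (SE 0.28, adjusted p = 0.0032). It stayed between 1.24 and 1.73 when any single mouse was left out.

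LM8 mice did not form a tight group for Areg. Their levels were 0.947, 2.18 and 3.60 FPKM (72, 172 and 412 reads), from below the lowest control mouse to above the lowest IL-33 mouse. The mean of 2.24 ± 1.33 FPKM was 2.11-fold under that of IL-33 mice, a log2 fold change of -1.07 (SE 0.47, adjusted p = 0.14) that missed the threshold. DESeq2 on the same counts gave an adjusted p of 0.039, and over the other alternatives tried the adjusted p ran up to 0.36. Against control the log2 fold change was 0.45 (SE 0.45, adjusted p = 0.49), and without IL-33+LM8 replicate 3 it turned to -0.07.

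**Figure D1:**
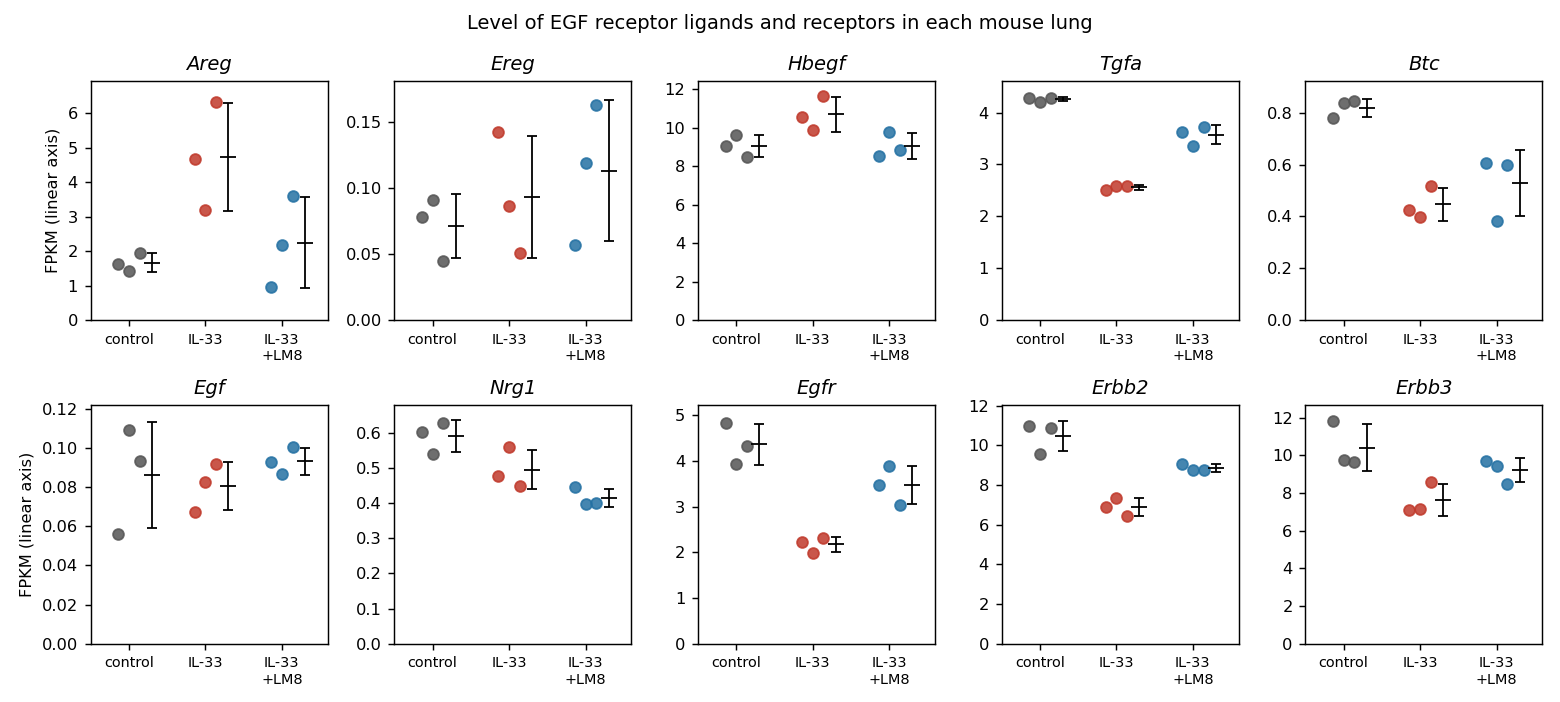
Level of each of the 10 ligand and receptor genes in FPKM (vertical axes, linear, from 0, with a range of their own for each gene) in 3 control, 3 IL-33 and 3 IL-33+LM8 mice; points are mice in replicate order and black bars are the mean and SD. Tgfa and Egfr separated IL-33 mice from both other groups, while Areg in LM8 mice ran from 0.947 to 3.60 FPKM.

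Areg and Btc, which changed in opposite directions, are neighbours on chromosome 5, and Tgfa and Egfr fell together, so the start regions of these 4 genes are shown. Each is the 250 bases ahead of the RefSeq start in GRCm38.p6, written along the gene's strand. Capitals mark matches, on either strand, to a cyclic AMP response element, an AP-1 site, an NF-kB site, a GC box or a TATA box; no 2 matches overlapped.
Areg: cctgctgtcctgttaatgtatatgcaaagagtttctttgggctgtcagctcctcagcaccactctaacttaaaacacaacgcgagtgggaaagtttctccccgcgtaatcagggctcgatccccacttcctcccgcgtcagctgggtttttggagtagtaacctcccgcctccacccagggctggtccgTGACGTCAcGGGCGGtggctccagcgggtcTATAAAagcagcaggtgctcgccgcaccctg
Btc: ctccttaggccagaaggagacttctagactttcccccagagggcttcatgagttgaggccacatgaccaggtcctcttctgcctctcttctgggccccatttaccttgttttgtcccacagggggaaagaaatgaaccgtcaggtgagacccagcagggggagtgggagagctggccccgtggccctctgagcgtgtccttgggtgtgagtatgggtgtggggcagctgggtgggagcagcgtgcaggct
Tgfa: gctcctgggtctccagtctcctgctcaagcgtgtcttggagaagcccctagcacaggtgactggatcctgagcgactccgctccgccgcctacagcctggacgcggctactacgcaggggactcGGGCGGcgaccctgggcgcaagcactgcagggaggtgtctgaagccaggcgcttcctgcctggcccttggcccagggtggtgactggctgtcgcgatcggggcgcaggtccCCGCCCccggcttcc
Egfr: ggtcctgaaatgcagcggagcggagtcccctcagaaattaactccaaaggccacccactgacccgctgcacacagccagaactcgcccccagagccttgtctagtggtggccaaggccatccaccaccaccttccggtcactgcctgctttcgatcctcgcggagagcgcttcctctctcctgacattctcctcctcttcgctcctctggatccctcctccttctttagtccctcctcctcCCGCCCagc
The Areg sequence covers chr5:91139349-91139598 on the plus strand, Btc chr5:91402995-91403244 on the minus strand, Tgfa chr6:86194972-86195221 on the plus strand and Egfr chr11:16751953-16752202 on the plus strand. In Areg a cyclic AMP response element, searched as TGACGTCA, began 61 bases ahead of the start. A GC box, searched as GGGCGG, began 52 bases ahead of it. A TATA box, searched as TATAAA, began 31 bases ahead. Of 32851 mouse promoter windows of this length, 1.55% held the first of these motifs, 32.7% a GC box and 12.4% a TATA box. Tgfa held 2 GC boxes, 126 and 15 bases ahead, Egfr 1 at 9 bases, and Btc none of the motifs. None of the 4 held the AP-1 letters, TGANTCA, or those of the NF-kB site, which were in 6.75% and 1.41% of all windows; such matches describe the letters only. Promoters were found for 6 of the 10 members.

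Hbegf (heparin-binding EGF-like growth factor) was the most abundant ligand in every mouse. Control mice had 9.04, 9.66 and 8.47 FPKM and IL-33 mice 10.6, 9.88 and 11.7 FPKM, so the groups were separate by a small margin. The rise was 1.18-fold, a log2 fold change of 0.24 (SE 0.08, adjusted p = 0.044). This call was lost when control replicate 1 or 3 or IL-33 replicate 1 or 3 was left out (adjusted p between 0.07 and 0.12). It was also lost with no filter on low genes and with a minimum of 5 FPKM. Of 17 settings, the main one included, 8 called it. LM8 mice, at 8.53, 9.80 and 8.84 FPKM, overlapped the control mice and lay just under the IL-33 mice. Their log2 fold change was -0.24 against IL-33 (SE 0.09, adjusted p = 0.093) and 0.02 against control (SE 0.09, adjusted p = 0.91), whose sign changed between alternatives.

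Tgfa (transforming growth factor alpha) was the steadiest ligand within groups. It stood at 4.27, 4.21 and 4.29 FPKM in control mice, at 2.51, 2.58 and 2.58 in IL-33 mice and at 3.63, 3.36 and 3.73 in LM8 mice. No group overlapped another, and the LM8 mice lay in between. IL-33 mice were 1.67-fold under control, a log2 fold change of -0.74 (SE 0.07, adjusted p = 1e-04), and LM8 mice were 1.40-fold above IL-33 mice, a log2 fold change of 0.48 (SE 0.08, adjusted p = 0.0035). The latter had an adjusted p of 0.068 without the deepest library of each group.

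Btc (betacellulin) fell as well, from 0.781, 0.837 and 0.844 FPKM in control mice to 0.424, 0.397 and 0.519 in IL-33 mice. Its log2 fold change was -0.88 (SE 0.19, adjusted p = 0.0061), on 113 to 294 reads a mouse in these groups, and its adjusted p was 0.059 without the deepest libraries. LM8 mice had 0.606, 0.381 and 0.599 FPKM, with 1 mouse under and 2 mice above all IL-33 mice. No difference from IL-33 was detectable (log2 fold change 0.24, SE 0.25, adjusted p = 0.54).

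The remaining 3 ligands were scarce. Ereg (epiregulin), next to Areg in the genome, had 12 to 64 reads in any mouse and 0.0444 to 0.163 FPKM, with overlapping groups. Egf itself had 44 to 109 reads, and its groups also overlapped. Nrg1 (neuregulin 1) stood at 0.603, 0.539 and 0.626 FPKM in control mice, 0.478, 0.559 and 0.449 in IL-33 mice and 0.445, 0.398 and 0.399 in LM8 mice. LM8 mice were lower than both other groups without overlap. With no filter on low genes, the Nrg1 log2 fold change was -0.48 in LM8 mice against control (SE 0.13, adjusted p = 0.049), -0.25 in IL-33 mice against control (adjusted p = 0.24) and -0.25 in LM8 mice against IL-33 (adjusted p = 0.35).

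The make-up of the ligand pool differed between control and IL-33 mice. The FPKM of the 6 ligands without Nrg1 summed to 15.7 to 16.3 in control mice, 16.2 to 21.3 in IL-33 mice and 13.9 to 17.0 in LM8 mice. Areg made up 8.74% to 12.4% of this sum in control mice, 19.6% to 29.8% in IL-33 mice and 6.83% to 21.1% in LM8 mice. The share of Tgfa ran the other way, at 25.8% to 27.3%, 12.1% to 15.9% and 21.1% to 26.2%. Tgfa exceeded Areg 2.20 to 2.95-fold in control mice, whereas in IL-33 mice Areg exceeded Tgfa 1.23 to 2.46-fold. In all 3 LM8 mice Tgfa was above Areg, by 1.04 to 3.83-fold. These shares describe mRNA, and were not tested since their parts were tested singly.

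**Figure D2:**
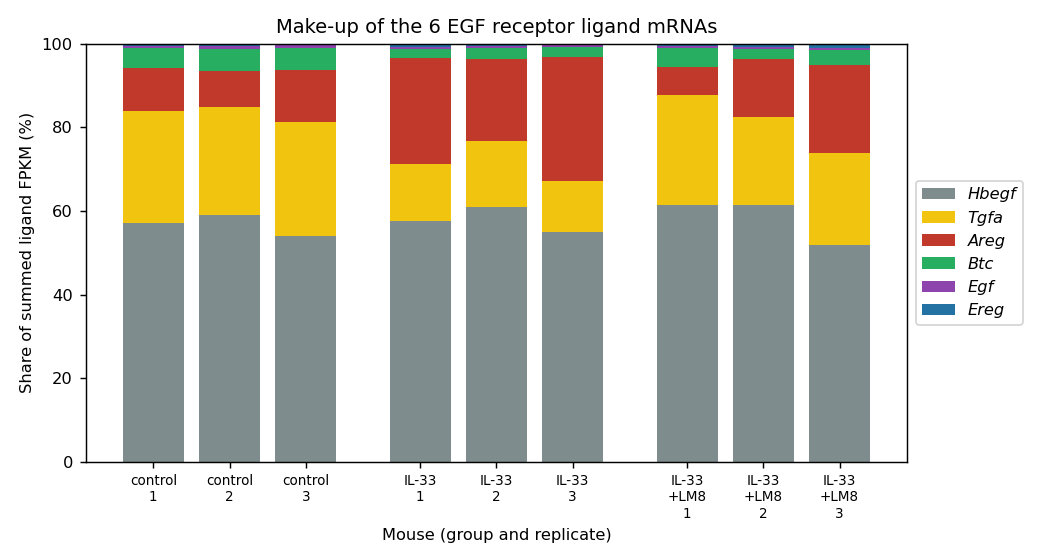
Share of each of 6 EGF receptor ligands in their summed FPKM (vertical axis, %), 1 stacked bar for each of 9 mice. Hbegf held 51.9% to 61.5% in every mouse, and in IL-33 mice the Areg band was wider than the Tgfa band.

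The receptors fell together with IL-33. Egfr, which encodes the receptor shared by the EGF-like ligands, stood at 4.84, 3.92 and 4.32 FPKM in control mice, 2.23, 1.99 and 2.31 in IL-33 mice and 3.48, 3.89 and 3.04 in LM8 mice. IL-33 mice lay far below both other groups, and LM8 mice lay below control mice by a narrow margin. IL-33 mice had 0.499 of the control level, a log2 fold change of -1.004 (SE 0.10, adjusted p = 0.00014). LM8 mice were 1.59-fold above IL-33 mice, a log2 fold change of 0.67 (SE 0.11, adjusted p = 0.0039), and Egfr was the single member still called in this comparison without the deepest library of each group (adjusted p = 0.015).

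Erbb2, the partner receptor, had 10.97, 9.58 and 10.9 FPKM in control mice, 6.92, 7.34 and 6.45 in IL-33 mice and 9.07, 8.74 and 8.73 in LM8 mice. No group overlapped another. Its log2 fold change was -0.60 with IL-33 (SE 0.08, adjusted p = 0.00061) and 0.36 in LM8 mice against IL-33 (SE 0.07, adjusted p = 0.0075; 0.072 without the deepest libraries). Erbb3, a neuregulin receptor, had 11.8, 9.77 and 9.63 FPKM in control mice, 7.11, 7.17 and 8.60 in IL-33 mice and 9.70, 9.45 and 8.48 in LM8 mice. All IL-33 mice lay below all control mice (log2 fold change -0.45, SE 0.12, adjusted p = 0.013). In LM8 mice it overlapped both other groups, and the log2 fold change against IL-33 was 0.27 (SE 0.10, adjusted p = 0.083; 0.031 without IL-33 replicate 3 and 0.037 by DESeq2).

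Summed over the 3 receptors, the level was 23.3 to 27.6 FPKM in control mice, 16.3 to 17.3 in IL-33 mice and 20.3 to 22.3 in LM8 mice. Egfr had the lowest log2 fold change of the 3 with IL-33, and the ratio of Erbb2 to Egfr was 2.27 to 2.51 in control mice, 2.80 to 3.68 in IL-33 mice and 2.25 to 2.87 in LM8 mice. Among the other family members only the ligand gene Nrg2 was tested: it had 1.24, 1.29 and 1.60 FPKM in control mice, 0.787, 0.388 and 0.490 in IL-33 mice and 1.18, 0.885 and 1.37 in LM8 mice. It fell with IL-33 (log2 fold change -1.31, SE 0.29, adjusted p = 0.0065) and was higher in LM8 than in IL-33 mice (1.04, SE 0.31, adjusted p = 0.042, up to 0.13 when single mice were left out). Nrg4 was below the filter at 0.317 to 0.396, 0.524 to 0.649 and 0.330 to 0.450 FPKM in control, IL-33 and LM8 mice, with no IL-33 mouse overlapping the others. With no filter its log2 fold change was 0.73 with IL-33 (SE 0.21, adjusted p = 0.036) and -0.60 in LM8 against IL-33 mice (SE 0.21, adjusted p = 0.13). Erbb4, Epgn and Nrg3 had at most 0.145 FPKM in any mouse. Erbb4, with 48 to 117 reads in control and 20 to 21 in LM8 mice, was lower in the latter in the fit without a filter (log2 fold change -1.895, SE 0.503, adjusted p = 0.048). IL-33 mice had 12, 61 and 2 reads of Erbb4. In that fit they differed detectably neither from control (adjusted p = 0.35) nor from LM8 mice (adjusted p = 0.84).

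Across the family, LM8 mice differed from IL-33 mice in 3 of the 7 tested members, Tgfa, Egfr and Erbb2, all higher, where 26.5% of all genes were called and 12.6% called higher. None of the 3 changed by 2-fold or more, as 5.39% of all genes did. The count was 1 without the deepest libraries and 5 by DESeq2. The groups did not overlap in 4 of the 7, as in 43.2% of all genes. Against control, none of the 7 was called in LM8 mice by edgeR, where 29.7% of all genes were called, 13.4% lower and 7.33% with a 2-fold change or more; 4 had an unadjusted p under 0.05, 4 were called by DESeq2 and 0 by limma. LM8 and control mice did not overlap in 4 (Tgfa, Btc, Egfr and Erbb2), as in 47.3% of all genes. The log2 fold changes were -0.24 for Tgfa (SE 0.08, adjusted p = 0.052), -0.62 for Btc (SE 0.23, adjusted p = 0.078), -0.32 for Egfr (SE 0.12, adjusted p = 0.09) and -0.23 for Erbb2 (SE 0.08, adjusted p = 0.056). With the replicate number as a block, 2 of the 7 were called lower than control, Erbb2 (adjusted p = 0.034) and Tgfa (adjusted p = 0.048). The comparisons share groups of mice, so their directions are not independent of each other.

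**Figure D3:**
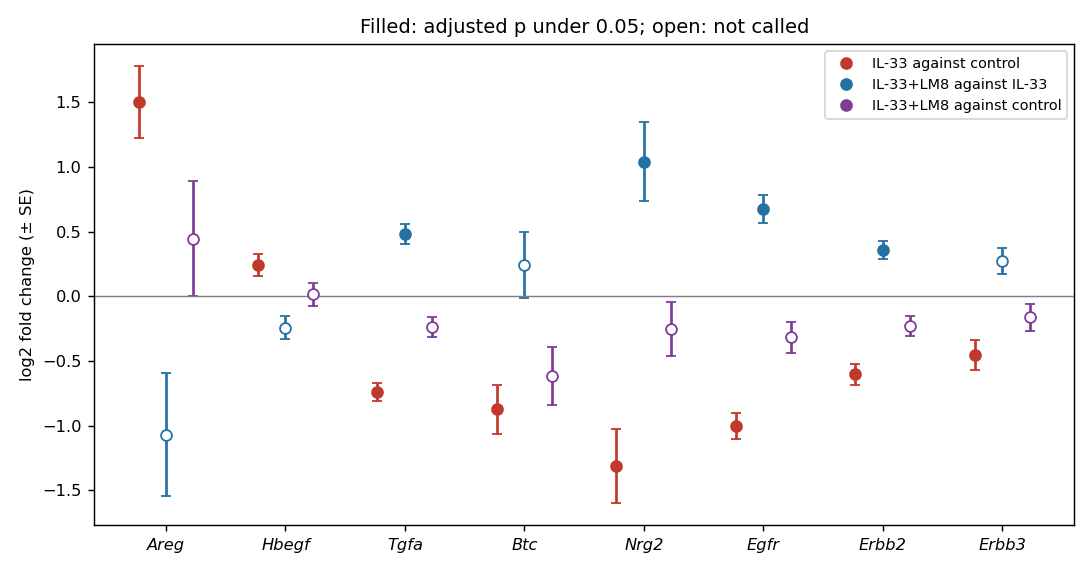
Log2 fold change with its SE (vertical axis) of the 7 tested members and Nrg2 in 3 comparisons of 3 mice against 3; filled points had an adjusted p under 0.05. All 8 genes were called in IL-33 against control, 4 in IL-33+LM8 against IL-33 and none in IL-33+LM8 against control.

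Genes that act on the ligands or behind the receptors were taken from 4 lists. Their counts stand beside the shares of all genes tested, of which 27.4% were higher and 27.2% lower with IL-33. These shares were 12.6% and 13.9% in LM8 against IL-33 mice, and 16.3% and 13.4% in LM8 against control mice. Release of ligands covered 10 genes for sheddases, their helpers and the inhibitor Timp3, and all 10 were called with IL-33, 8 higher and 2 lower. Adam8 went from 5.29 to 6.09 FPKM in control mice to 61.7 to 65.9 in IL-33 mice (log2 fold change 3.45, SE 0.07, adjusted p = 5e-07) and 23.7 to 25.9 in LM8 mice. Adam17, the main sheddase of Areg, Tgfa and Hbegf, rose by 0.43 on the log2 scale (SE 0.05, adjusted p = 0.00017), and Adam10, which cuts Egf and Btc, by 0.67 (SE 0.05, adjusted p = 2.9e-05). Adam12 rose by 1.76. Timp3, an inhibitor of Adam17, fell by 0.84, and Rhbdf1, which helps Adam17 mature, fell by 0.74. The median log2 fold change of the list was 0.42, against -0.005 for all genes.

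In LM8 against IL-33 mice 8 of the 10 release genes were called, 6 lower and 2 higher. Adam12 was lower by 1.50 on the log2 scale (-1.50, SE 0.12), Adam8 by 1.33 (-1.33, SE 0.06), Adam10 by 0.47 (-0.47) and Adam17 by 0.35 (-0.35), while Timp3 was higher by 0.58 and Rhbdf1 by 0.39 (adjusted p = 0.053 without IL-33 replicate 1). Against control, LM8 mice had 3 higher (Adam8, Adam9 and Frmd8) and 1 lower (Rhbdf1). The call of Adam8 held with each mouse left out. Those of the other genes did not: Adam9 was lost without any 1 of 5 mice (all but IL-33+LM8 replicate 1), Frmd8 without control replicate 3 or IL-33+LM8 replicate 1 or 2, and Rhbdf1 without control replicate 1 or 2 or IL-33+LM8 replicate 2 or 3, with adjusted p values up to 0.092, 0.067 and 0.098. Adam17 was then at 0.09 (SE 0.06, adjusted p = 0.26).

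Of 25 signal transduction genes, 10 were higher and 10 lower with IL-33. The adaptors Eps8 and Grb2 rose by 0.91 and 0.88 on the log2 scale and Shc1 by 0.52, and Plcg1, the phospholipase C gamma gene, fell by 0.67. LM8 mice had 2 of these genes higher and 5 lower than IL-33 mice, Grb2 at -0.37 and Eps8 at -0.35 among the latter, with Src at -0.39 and Gab1 at 0.37. The call of Src was lost without IL-33 replicate 1 or IL-33+LM8 replicate 1 or 2 (adjusted p up to 0.072). Against control, 6 were higher and 6 lower in LM8 mice, with Eps8 at 0.58, Stat3 at 0.57, Grb2 at 0.53 and Plcg1 at -0.41.

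Of 19 genes that restrain the pathway, 3 were higher and 10 lower with IL-33, with a median log2 fold change of -0.24. Errfi1, an inhibitor that binds the Egfr kinase and is induced by its activity, was at 106, 105 and 115 FPKM in control mice, 40.9, 37.8 and 41.4 in IL-33 mice and 53.6, 64.9 and 64.7 in LM8 mice. No group overlapped another. Its log2 fold change was -1.44 with IL-33 (SE 0.06, adjusted p = 2.7e-06), 0.61 in LM8 against IL-33 mice (SE 0.09, adjusted p = 0.0023) and -0.82 in LM8 mice against control (SE 0.09, adjusted p = 0.00087). The feedback inhibitors Spry1 and Spry2 fell 2.47-fold and 1.74-fold with IL-33, and Dusp5, an ERK phosphatase, rose 2.09-fold. In LM8 against IL-33 mice 5 restraint genes were higher, with Spry1 at 0.85 and Spry2 at 0.53, and 2 were lower, with Dusp5 at -0.64. Against control, 2 were higher (Ptpn1 at 0.56 and Lrig1 at 0.28) and 2 lower (Errfi1 and Spry1, the latter at -0.44). The call of Lrig1 was lost whichever mouse was left out (adjusted p from 0.055 to 0.13).

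The genes known to respond to ERK signalling moved apart from each other. Of 10 listed, 8 were tested, and IL-33 mice had 2 higher and 5 lower. Etv4 and Fosl1 were below the filter. Etv4 had means of 0.136, 0.918 and 0.205 FPKM in control, IL-33 and LM8 mice, with all IL-33 mice above all others. Means of Fosl1 were 0.109, 0.168 and 0.210 FPKM. Egr1 was at 25.6, 21.3 and 24.8 FPKM in control mice, 9.57, 7.58 and 8.93 in IL-33 mice and 23.9, 13.9 and 19.9 in LM8 mice. IL-33 mice were below both other groups, which overlapped. The log2 fold change was -1.46 (SE 0.11, adjusted p = 3.1e-05) with IL-33 and 1.14 (SE 0.19, adjusted p = 0.004) in LM8 against IL-33 mice. Fos followed, at -1.43 and 0.83. Myc, by contrast, was 3.84-fold higher with IL-33 (log2 fold change 1.93, SE 0.08, adjusted p = 2.7e-06) and stayed at 8.51, 12.7 and 9.93 FPKM in LM8 mice, around the 10.7 to 11.6 FPKM of IL-33 mice. Junb rose by 1.31 with IL-33. In LM8 against IL-33 mice 3 of the 8 were higher (Egr1, Fos and Ier3) and the other 5 were not called. Against control, 3 were higher and 4 lower. Myc and Junb were among the higher, called in all 17 settings. Fos and Phlda1 were among the lower, called in 10 and 9 of 17. With single mice left out the log2 fold change was -0.739 to -0.446 for Fos (adjusted p up to 0.1). For Phlda1 it was -0.735 to -0.449 (adjusted p up to 0.13).

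Over these lists and the family's other 5 genes, 51 of 63 tested genes were called with IL-33, where 54.6% of all genes were. In LM8 against IL-33 mice 26 of the 63 genes were called, where 26.5% of all genes were. In LM8 against control mice 27 of the 63 were called, where 29.7% of all genes were. Without the deepest libraries the counts were 44, 12 and 10. With the replicate number as a block, 39 were called in LM8 against control mice, 17 higher and 22 lower.

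**Figure D4:**
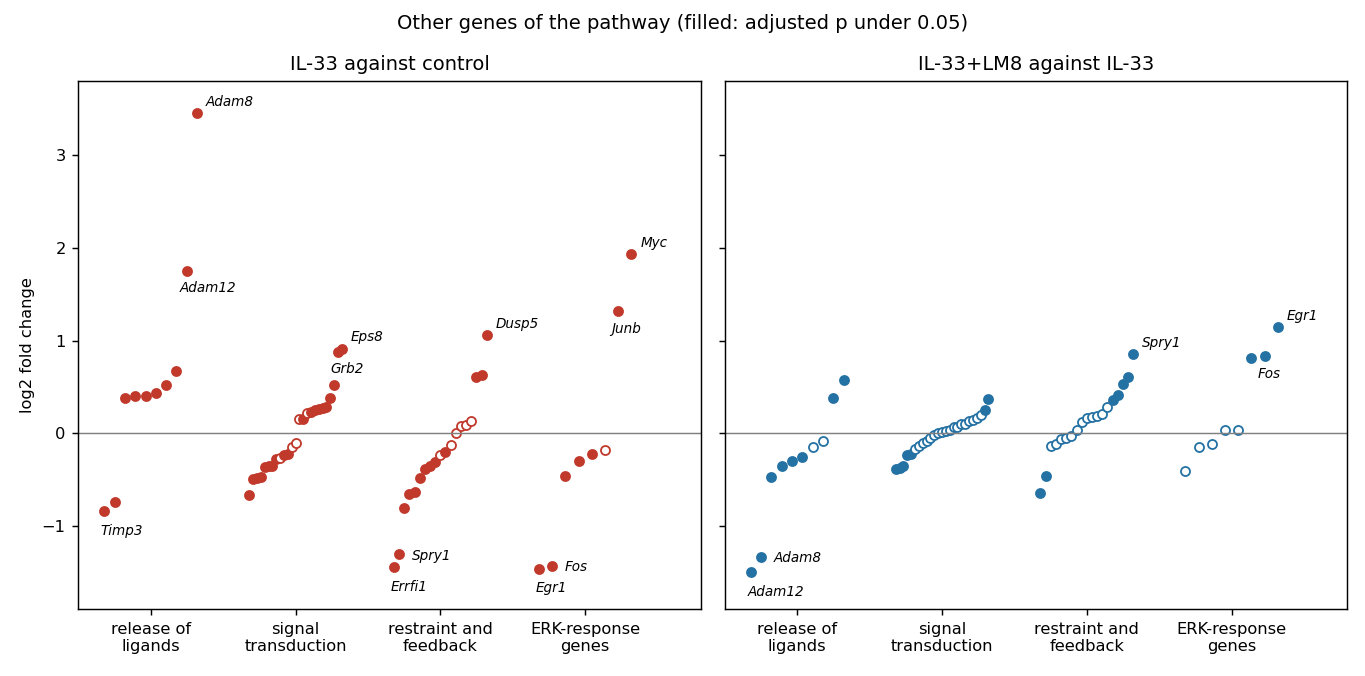
Log2 fold change (vertical axis) of the tested genes of 4 pathway lists, ordered by value within each list, in IL-33 against control (left) and IL-33+LM8 against IL-33 mice (right); filled points had an adjusted p under 0.05. With IL-33, 8 of 10 release genes were higher and 10 of 19 restraint genes lower.

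Cell type markers moved beside the members, and their part in the members' changes was not tested. The 5 pan-epithelial markers summed to 240 to 254 FPKM in control mice, 247 to 262 in IL-33 mice and 226 to 241 in LM8 mice, with 2 of 5 called higher and none called lower with IL-33. The sums of alveolar and club cell genes were lower with IL-33 and in between with LM8, as were the levels of Tgfa, Egfr and Erbb2. For 5 alveolar type 1 genes, 4 of which were lower and 1 higher, the sums were 1208 to 1311, 647 to 678 and 959 to 1011 FPKM. For 5 alveolar type 2 genes, 3 of which were lower, they were 12336 to 13360, 6063 to 6283 and 10370 to 11209 FPKM. All 3 club cell genes were lower, with Scgb1a1 at 20208 to 22247, 8229 to 9257 and 16483 to 17960 FPKM. In LM8 against IL-33 mice 3 of 5 genes of each alveolar list and all 3 club cell genes were called higher. Single genes could differ from the sums. Abca3 had means of 45.8, 31.4 and 30.3 FPKM in control, IL-33 and LM8 mice, and Aqp5 of 78.9, 47.1 and 48.3 FPKM. The sums of other lists differed from those of the alveolar and club cells. All 4 goblet cell genes were higher with IL-33, with sums of 6.88 to 16.3, 422 to 466 and 503 to 513 FPKM. The ciliated cell sums, led by Foxj1, overlapped, at 44.3 to 62.6, 42.2 to 47.1 and 45.5 to 52.5 FPKM. Of these 3 genes 2 were lower with IL-33, Tekt1 by 0.80 and Ccdc39 by 0.99 on the log2 scale, and Foxj1 was not called. Some genes of other tissues fell with IL-33 too. Of 3 endothelial genes 2 were lower, and the sums were 490 to 565, 325 to 358 and 499 to 518 FPKM. Of 4 fibroblast genes 3 were lower with IL-33 and 1, Col1a1, was higher. Pdgfra had means of 50.7, 23.4 and 35.4 FPKM in control, IL-33 and LM8 mice, and Tcf21 of 43.5, 25.6 and 40.8 FPKM. Means of Col1a1, the most abundant of the list, were 33.6, 149 and 40.3 FPKM. The fibroblast sums were 148 to 159, 199 to 233 and 132 to 134 FPKM. No gene of these lists was at 0 in all mice.

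Among leukocytes that can make Areg, most ILC2 and Th2 markers and all regulatory T cell markers were higher with IL-33. The ILC2 and Th2 genes summed to 9.36 to 10.0 FPKM in control mice, 53.6 to 64.4 in IL-33 mice and 25.6 to 27.5 in LM8 mice, with 5 of 6 higher in IL-33 mice. All 4 regulatory T cell genes were higher, and their sums were 1.80 to 2.02, 16.2 to 19.1 and 8.16 to 9.73 FPKM. Single genes of these lists varied more than the sums within the LM8 group, where Il13 was at 1.04, 3.34 and 1.42 FPKM and Il2ra at 3.45, 6.06 and 4.71 FPKM. The 5 mast cell and basophil genes were scarce, with sums of 1.82 to 2.02, 2.06 to 3.41 and 2.34 to 3.27 FPKM. Only Cpa3 passed the filter, and it was called higher with IL-33. Means in control and IL-33 mice were 0.105 and 0.304 FPKM for Mcpt8 and 0.222 and 0.250 for Fcer1a. They were 0.220 and 0.250 FPKM for Ms4a2 and 0.384 and 0.172 for Mcpt4. Lists of other leukocytes rose too. With IL-33 all 4 tested eosinophil, 4 of 5 macrophage, 3 of 4 dendritic cell and all 5 neutrophil genes were called higher. The other macrophage gene was lower. In LM8 against IL-33 mice 4 eosinophil, 4 macrophage and 2 dendritic cell genes were called lower. There 1 macrophage and 5 neutrophil genes were called higher.

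Among all genes with a mean of at least 0.5 FPKM, those whose levels over the 9 mice were most like Areg were Mtfmt (Pearson's r 0.971 on log2(FPKM + 1)), Cpa3 (0.964), Ostm1 (0.959), Dipk1a (0.946) and Zbtb45 (0.944). These are descriptions over 9 libraries in 3 groups, in which genes of a mouse share its library and depth. Cpa3, which encodes a mast cell carboxypeptidase, was at 1.05, 0.967 and 0.979 FPKM in control mice, 2.09, 1.39 and 2.31 in IL-33 mice and 0.871, 1.36 and 1.50 in LM8 mice. Its place among these genes was by likeness to Areg over the same mice, which favours a shared order. Cpa3 ranked the mice as Areg did in the IL-33 and LM8 groups but not in the control group. Other mast cell and basophil genes, all below the filter, were mixed in this. In LM8 mice Mcpt4 was at 0.445, 0.362 and 0.194 FPKM, unlike Areg, and Fcer1a at 0.387, 0.490 and 0.591 FPKM, in the order of Areg. In the same mice Mcpt8, at 0.190, 0.444 and 0.440 FPKM, and Ms4a2, at 0.444, 0.607 and 0.414 FPKM, were unlike Areg. In IL-33 mice Ms4a2, at 0.323, 0.257 and 0.170 FPKM, and Fcer1a, at 0.487, 0.121 and 0.142 FPKM, were unlike Areg. There Mcpt8, at 0.304, 0.290 and 0.318 FPKM, and Mcpt4, at 0.201, 0 and 0.315 FPKM, had the order of Areg by FPKM. They rested on few reads, 21, 19 and 18 for Mcpt8 and 16, 0 and 20 for Mcpt4. The reads of Mcpt8 were not in the order of Areg. The most similar genes to Egfr were Phc2 (0.991), Zfp383 (0.988), Slc39a9 (0.987), Fam71f2 (0.985) and Zfp446 (0.982), all lowest in IL-33 mice.

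**Figure D5:**
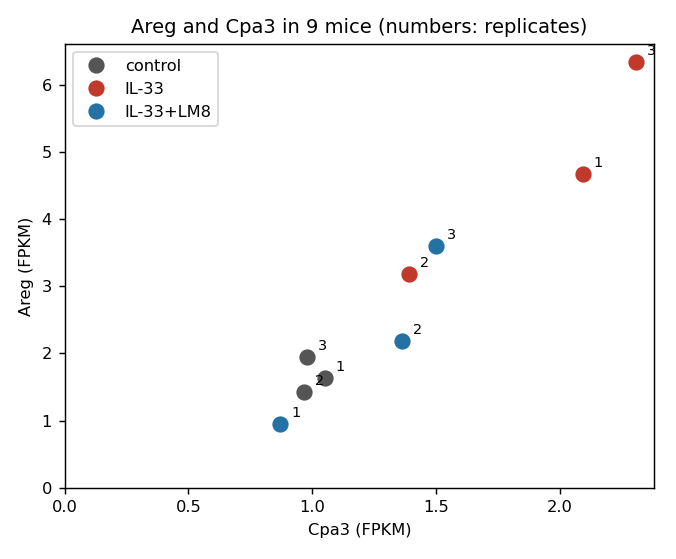
Areg against Cpa3, both in FPKM on linear axes from 0, in 9 mice; numbers beside points are replicates. The LM8 mice ran from 0.871 FPKM of Cpa3 with 0.947 of Areg to 1.50 with 3.60, and the control mice lay close together.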

How the data were processed

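Lung RNA of 9 mice was sequenced in paired ends of 150 bases. The authors deposited read counts per gene, as raw counts, and FPKM per gene, scaled by gene length and library size. The submitters' processing notes name HISAT2 2.0, StringTie 1.3.0, Bowtie 0.12.2 and mm10; the counting tool, its strand setting and the annotation are not given in the sources used here. Only 578 of 32643 gene identifiers shared with GRCm38 had the same coordinates, so the table's coordinates were not joined to that genome. Groups came from the labels, and no library was a copy of another, the chi-square per gene within groups being 21.9 or more. The labels do not say that samples of a group were prepared separately, so p-values measure the spread between these samples, which may be technical.

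Deposited counts were tested with edgeR 4.0.16 (quasi-likelihood test, TMM) in R 4.3.3, on the 6 mice of each comparison, over genes with a mean of at least 0.5 FPKM and a count above 0 in those mice. The call needed an adjusted p (Benjamini-Hochberg) under 0.05 and no minimum fold change. The SE is the log2 fold change divided by the square root of F. Multiples are ratios of mean FPKM. With 3 mice against 3 an exact permutation test cannot give a two-sided p under 0.1, so none is given. The fits were tested on simulated data. Alternatives used limma 3.58.1 on log2(FPKM + 1) and log2(FPKM + 0.1), DESeq2 1.42.0, other filters, scalings and thresholds, the 9 mice in a single fit, the replicate number as a block, and single mice left out; leaving out the deepest library of each group was added after seeing the data.

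By their deviations from group means, same-numbered control and LM8 mice had correlations of 0.31 to 0.67, and others of -0.44 to 0.20. The 0.67 was that of the replicates 3, each the deepest library of its group. Deepest libraries of unlike number also had correlations of 0.65 (control 3 and IL-33 1) and 0.67 (IL-33 1 and LM8 3). The labels do not state a pairing, and pairing and shared depth were not told apart. Named genes were all members and other family genes, from each pathway list up to 4 called genes of largest change per comparison, the most abundant gene of marker lists, the 5 genes most like Areg and Egfr, and genes within 500 kb of Areg. Adam17, Adam10 and values of listed genes outside the comparison that named them were given for their role. Marker lists and single marker genes named in the text were those set beside a member. Mcpt4, Ms4a2, Mcpt8, Fcer1a, Il13, Il2ra, Pdgfra, Tcf21, Abca3, Aqp5, Tekt1 and Ccdc39 were chosen after their values were seen, as were the ERK-response genes Etv4 and Fosl1. The members and lists were chosen with earlier results of these data known.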

Additional observations from a re-analysis of the deposited data

How the results depend on the processing

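Of the values of single members under the alternatives, 286 had the same direction and call, 19 lost the call, 14 gained one and 5 changed sign. Requiring a 2-fold change left 2 members with IL-33 and 0 in LM8 against IL-33 mice, with 10, 4 and 3 pathway genes and 2865, 907 and 1233 of all genes in the 3 comparisons. A minimum of 5 FPKM kept 3 members in the test and called 2, 1 and 1, among 5458, 2837 and 3182 of all genes. DESeq2 called 5 members in LM8 against IL-33 and 4 in LM8 against control mice. In the latter 1 member was called with median-of-ratios size factors, 1 with no filter, 2 in a fit of all 9 mice and 2 with the replicate block. Without the deepest libraries, LM8 against IL-33 mice gave 1 member, 12 pathway genes and 1966 of all genes, and LM8 against control mice 10 pathway genes and 2622 of all genes. The cause of these shifts was not tested, beyond fewer genes or samples in the fits.

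Leaving out 1 mouse at a time gave 6 to 7, 3 to 4 and 0 to 1 members, 46 to 50, 21 to 26 and 15 to 27 pathway genes, and 7875 to 8549, 3042 to 4368 and 3165 to 4919 of all genes. Same-numbered correlations were -0.42 to 0.28 for control and IL-33 mice and -0.40 to 0.22 for IL-33 and LM8 mice. There the replicate block gave 8256 and 3393 of all genes, and 6 and 3 members, with Hbegf losing its IL-33 call (adjusted p = 0.11). For control and LM8 mice, with same-numbered correlations of 0.31 to 0.67, the block gave 6422.

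In LM8 against control mice Areg changed sign without IL-33+LM8 replicate 3 (-0.070; up to 0.81 without other mice), and Hbegf with a minimum of 5 FPKM (-0.014), without control replicate 3 (-0.037), without IL-33+LM8 replicate 2 (-0.046) and without the deepest libraries (-0.018; up to 0.07 without other mice). In LM8 against IL-33 mice Frmd8 did so without IL-33 replicate 3 (0.009; otherwise down to -0.13), Myc without IL-33+LM8 replicate 1 (0.014; otherwise down to -0.29), and Junb without IL-33 replicate 2 (-0.038), without IL-33+LM8 replicate 3 (-0.093) and without the deepest libraries (-0.131; up to 0.17 without other mice). None of these was called. For Ereg, at 12 to 64 reads, and Egf, at 44 to 109, the fit without a filter gave IL-33 log2 fold changes of 0.36 (SE 0.55) and -0.10 (SE 0.35).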

Other observations

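Areg and Ereg share a stretch of chromosome 5 with Epgn, Btc and a cluster of chemokine genes. In the deposited table's coordinates Ereg ended 46.0 kb ahead of Areg, Epgn 39.4 kb ahead of Ereg, and Btc lay 208.8 kb beyond Areg on the other strand. Of 18 other entries that lay within 500 kb of Areg, 13 were tested. With IL-33, 6 were higher, 4 lower and 3 not called, where 54.6% of all genes were called.

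Some of the chemokine genes were highest in LM8 mice. Cxcl2, a neutrophil attractant, had a mean of 0.326 ± 0.148 FPKM (SD, n = 3) in control mice, 1.00 ± 0.142 in IL-33 mice and 3.40 ± 0.710 in LM8 mice, and its log2 fold change was 1.56 with IL-33 (SE 0.35, adjusted p = 0.0074) and 1.75 in LM8 against IL-33 mice (SE 0.22, adjusted p = 0.0012). Cxcl5 was also higher in LM8 than in IL-33 mice (1.41, SE 0.42, adjusted p = 0.045). Ppbp, a platelet chemokine gene, fell by 1.24 with IL-33 and was 1.60 higher in LM8 than in IL-33 mice (SE 0.20, adjusted p = 0.0012). Pf4, its platelet neighbour, did the reverse, at 1.09 and -0.46. Cxcl3 rose by 4.49 with IL-33, from a mean of 0.0484 FPKM, and was at -0.02 in LM8 against IL-33 mice (adjusted p = 0.98). Cxcl15, a chemokine gene of the lung epithelium, was the most abundant of the stretch, at a mean of 288 FPKM in control mice, 488 in IL-33 mice and 454 in LM8 mice. Beyond Btc, Parm1 fell by 1.08 with IL-33 (SE 0.13, adjusted p = 0.00033), and its difference between LM8 and IL-33 mice was 0.30 (adjusted p = 0.13). In LM8 against IL-33 mice, 3 of the 13 were higher (Cxcl2, Cxcl5 and Ppbp), 1 lower (Pf4) and 9 not called, where 26.5% of all genes were called. The 5 neutrophil markers summed to 21.4 to 26.3 FPKM in control mice, 79.0 to 102 in IL-33 mice and 667 to 780 in LM8 mice, and their part in these values was not tested.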
